A study of Danio rerio with 6 samples.

Results

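Whole zebrafish embryos at 36 hpf (hours post fertilization, T3) were compared with embryos at 24 hpf (T2) across every gene of the deposited gene table and, apart from it, across every transcript of the deposited lncRNA table. The comparison used 4 of the 6 libraries of the series, 2 of T2 and 2 of T3, taken by their labels, and left out the 2 libraries of T1 (10 hpf). The gene table holds 30111 genes, of which 25183 reached 0.1 RPKM in at least 2 of the 4 libraries and were tested. The lncRNA table holds 9029 transcripts, of which 7909 were tested. The values are RPKM, read counts scaled by exon length and by the reads of the library, and all changes were computed on log2(RPKM + 0.5), a scale that understates the change of low genes. A call needed both a limma *p* below 0.05 after Benjamini-Hochberg adjustment and a log2 fold change beyond 1 in size, and "rose" and "fell" are used below only for called genes, always from T2 to T3.

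All embryos were wild type of the AB line and received no treatment. For each stage 100 embryos were freed of the chorion and divided at random into 2 groups, and each group gave 1 library of rRNA-depleted total RNA. Whether both groups shared a clutch is not stated, so a *p* value here reflects how far these libraries spread, and that spread may be technical. For 1 gene alone, exact permutation of 2 against 2 libraries reaches no *p* smaller than 0.333, which leaves the calls to the variance that limma moderates over genes. In RNA of whole embryos, fewer cells of a type and less RNA per cell cannot be told apart. The stage labels were checked against genes whose levels are known to change with age. Genes of the somite clock were lower at T3 and lens crystallin genes were higher, with the values given below. Those values are also reported as results, and the lists were written with earlier results of these data known. This is therefore no independent check of the labels.

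At 24 hpf the zebrafish embryo has closed its period of somite formation, the trunk muscle twitches, and the first axon tracts have been laid down. By 36 hpf the tail has lengthened, skin, lens and retina have begun to differentiate, pigment and circulation are visible, and the fin folds stand on collagen-like fibres called actinotrichia. Muscle fibres of this age exchange embryonic sarcomere isoforms for those of faster, stronger fibres, while the factors that commit and fuse myoblasts are known to act early and then decline.

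The read totals behind the RPKM of the 4 libraries, recovered from the values, lay between 48249525 and 51846237. The most a count of 0 allows, taken as 3 reads, was thus 0.0579 to 0.0622 RPKM on a gene of 1 kb. Coordinates are those of the deposited exons on GRCz11. This limit covers counting error only. Over 14468 genes above 1 RPKM in the 4 libraries, the SD of the log2 difference between both libraries was 0.176 at T2 and 0.158 at T3. The median of these genes differed by -0.03 between T3 and T2. Over the 12127 genes also above 1 RPKM at T1, it differed by -0.13. The changes below are not corrected for that shift. After centring on it, 19 of the 280 genes chosen to be named lost the call. Genes with near-identical copies (crystallins, globins, fast myosins, parvalbumins) can share reads, which makes each member's own value uncertain. Of the genes tested, 4678 are listed with exons on more than 1 chromosome or scaffold, and 218 of these were called.

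Between T2 and T3, 1520 genes changed, 987 of them rising and 533 falling, which is 6.04% of the genes tested in either direction, 3.92% higher and 2.12% lower. The highest adjusted *p* among the called genes was 0.0401 in limma. In all 987 and in all 533, both libraries of 1 stage lay above both libraries of the other, as did 72.95% of all genes tested. Large rises outnumbered large falls. An absolute log2 fold change above 2 was reached by 177 genes that rose and 46 that fell, and one above 3 by 71 and 8. After median centring over the genes above 1 RPKM in all 6 libraries, the rising share of the calls moved from 64.9% to 78%, with 1282 genes higher and 361 lower. None of the 1520 changed its sign, as the shift was small against the threshold of 1. The plot of all genes by stage shows these calls.

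**Figure D1:**
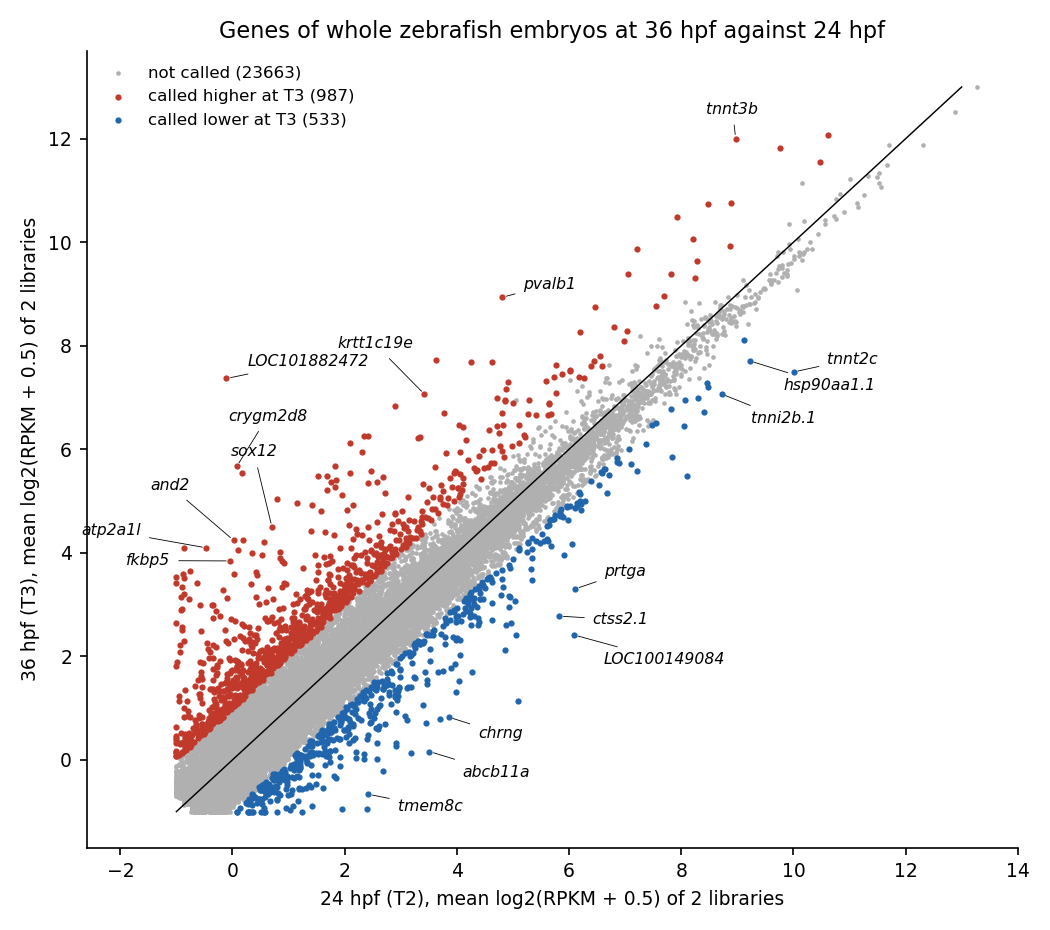
Each point is 1 gene, with its mean log2(RPKM + 0.5) over the 2 libraries of 24 hpf on the x axis and of 36 hpf on the y axis, and the line marks equal values. The 987 genes called higher lie above the line and the 533 called lower lie below it, and named genes are labelled.

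The T2 libraries were not equally far from T3. Of the 987 genes that rose, 745 (75.5%) were already higher in T2 library 2 than in T2 library 1, with a median log2 difference of 0.12. Of the 533 genes that fell, 132 (24.8%) were higher in T2 library 2, with a median of -0.14. Among the 23663 genes without a call the share was 49.1%. In the T3 libraries the same shares were 51.6%, 52.2% and 54.3%. T2 library 2 lay nearer to T3 for genes of both directions, as the curves of library differences show. In the lncRNA table, 81.5% of the rises and 36.5% of the falls were higher in T2 library 2, against 54.7% of transcripts without a call. Without T2 library 1, 1381 genes were called, and without T2 library 2, 1828. Of the 280 genes chosen to be named, 28 lost the call without T2 library 1, 4 without T2 library 2, 16 without T3 library 1 and 14 without T3 library 2, and none changed its sign. A sign could not change in these fits, since the stages of called genes did not overlap. Whether the embryos of the 2 T2 groups differed in age was not tested.

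**Figure D2:**
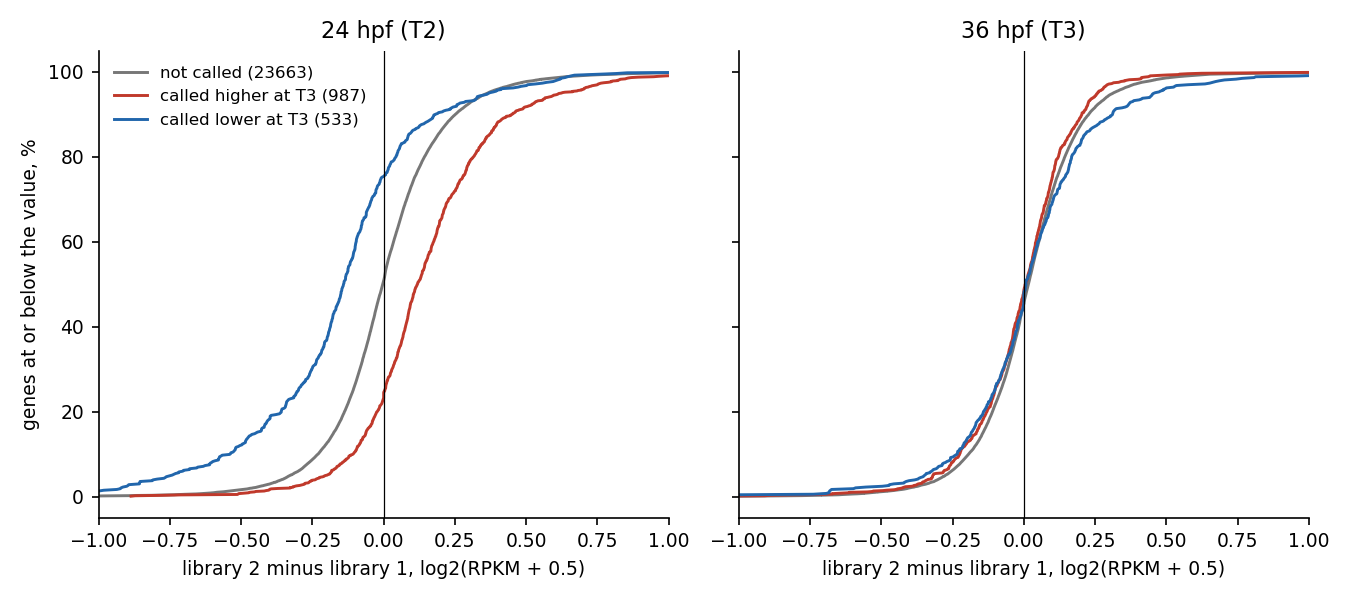
Cumulative share of genes (y axis, %) by the difference of library 2 minus library 1 in log2(RPKM + 0.5) (x axis), at 24 hpf on the left and 36 hpf on the right, for genes called higher, called lower and not called between T3 and T2. At 24 hpf the 3 curves stand apart, with medians of 0.12, -0.14 and 0, and at 36 hpf they lie together.

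The calls were counted in 76 lists of tissue, pathway and complex genes, which the plot of gene lists shows in part. A list whose share of calls lies near the 3.92% higher or 2.12% lower of all genes is no result about that list. The median log2 fold change of all genes tested was -0.08.

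**Figure D3:**
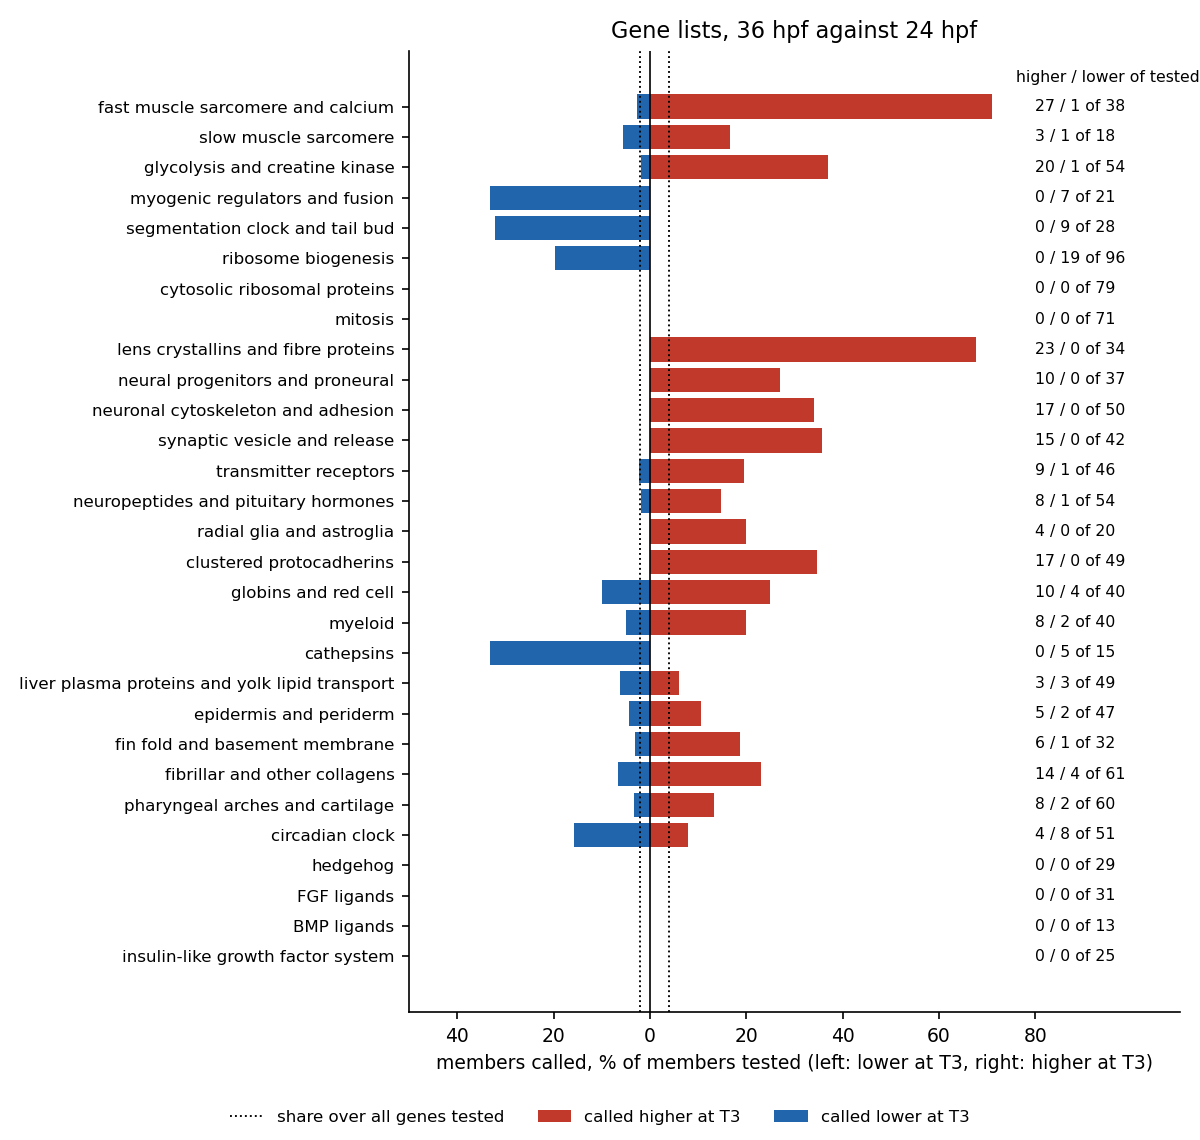
Members called higher (right, red) and lower (left, blue) at 36 hpf as % of the members tested in each of 29 gene lists, with the counts at the right, and dotted lines at the 3.92% and 2.12% of all genes tested. The fast muscle list reached 27 of 38 higher and the lens list 23 of 34. The hedgehog, FGF, BMP and insulin-like growth factor lists held no call, but with 6.04% of all genes called, lists of 13 to 31 genes hold few.

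Of 38 genes of the fast muscle sarcomere and its calcium handling, 27 rose and 1 fell, with a median log2 fold change of 1.57. In T2 library 2, 37 of the 38 were higher than in T2 library 1, with a median log2 difference of 0.25 against the 0.12 of all genes that rose. The part of that difference in the result was not tested. Other lists leaned the same way, with 29 of 34 lens genes, 35 of 42 synaptic vesicle genes and 45 of 49 genes of the clustered protocadherin list higher in T2 library 2. Some leaned the other way, with 5 of 40 red cell and 18 of 96 ribosome biogenesis genes higher there. The count of rises was 24 without T2 library 1 and 28 without T2 library 2. The troponin T gene *tnnt3b* (chromosome 7, 39444873 to 39460363), whose product anchors the troponin complex to the thin filament, stood at 422 and 596 RPKM at T2 and 4028 and 4175 RPKM at T3. It gained more RPKM than any other called gene, and both T3 libraries lay far above both T2 libraries (log2 fold change 3.03 ± 0.16, standard error, limma adjusted *p* = 0.00018). The fast myosin heavy chain genes *myhz1.1*, *myhz1.2*, *zf-e68* and *myhz2*, neighbours on chromosome 5, were next to it among the 10 largest gains together with the tropomyosin gene *tpma*, *tnnt3a*, *tnni2a.4*, the light chain gene *mylz3* and LOC110440174. An assembled antisense transcript overlaps 90% of the exon length of LOC110440174. *myhz1.1* went from 804 and 931 to 3489.9 and 3755 RPKM, *tpma* from 1466 and 1669 to 4217 and 4401 RPKM and *myhz2* from 201 and 291 to 1403 and 1451 RPKM. *zf-e68* rose from 1351 and 1504 to 2877 and 3089.9 RPKM, and its log2 fold change of 1.06 was 0.99 without T2 library 1, short of the threshold. In relative terms other members led. *atp2a1l*, which codes for a calcium pump of the sarcoplasmic reticulum, stood at 0.175 and 0.279 RPKM at T2 and 17 and 16.2 RPKM at T3 (4.56 ± 0.10). *pvalb1*, one of the parvalbumin genes whose calcium-binding products let fast fibres relax, stood at 20.1 and 37.8 RPKM at T2 and 498 and 481 RPKM at T3 (4.13 ± 0.27). Its T2 libraries differed from each other by far less than they did from T3. *pvalb4* went from 8.29 and 11.2 to 74.4 and 76.5 RPKM.

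Within the troponins, single isoforms moved in opposite directions, as the plot of muscle genes shows. *tnnt2c* (chromosome 4, 12031973 to 12033866), a troponin T gene of the cardiac and slow type, lost more RPKM than any other called gene, from 1001 and 1055 to 186 and 174 RPKM (-2.51 ± 0.07, limma adjusted *p* = 4.1e-05). Its paralogs *tnnt2e* and *tnnt2d* rose, *tnnt2e* from 2.73 and 2.24 to 29.8 and 25.5 RPKM (3.24 ± 0.11) and *tnnt2d* from 23.2 and 28.5 to 131 and 121 RPKM (2.27 ± 0.11). The fall of *tnnt2c* kept its sign and lost its call when the T1 libraries, at 22.8 and 3.67 RPKM, entered the fit. Among the fast troponin I genes of chromosome 7, *tnni2b.1* (chromosome 7, 39401388 to 39406765) was the only member of the fast list that fell, from 421 and 422 to 135 and 133 RPKM, while *tnni2b.2* (chromosome 7, 39387082 to 39392865) beside it rose from 0.640 and 0.649 to 18.6 and 18.3 RPKM (4.05 ± 0.08). At T3 *tnni2b.1* remained the more abundant of the pair. Of the 18 genes tested of the slow sarcomere list, 3 rose and 1 fell with a median of 0.01. Within this list, besides the *tnnt2* genes only *myoz1a*, a Z-disc gene, rose, from 0.655 and 0.876 to 4.09 and 4.23 RPKM. In which fibre type *myoz1a* rose was not tested. *tnni1al*, which this list does not hold, rose as well, with its values given below. The slow myosin gene *smyhc1* stood at 342 and 327 RPKM at T2 and 267 and 289.7 RPKM at T3 and the slow troponin C gene *tnnc1b* at 192 and 194 RPKM at T2 and 275 and 283 RPKM at T3, and neither was called.

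**Figure D4:**
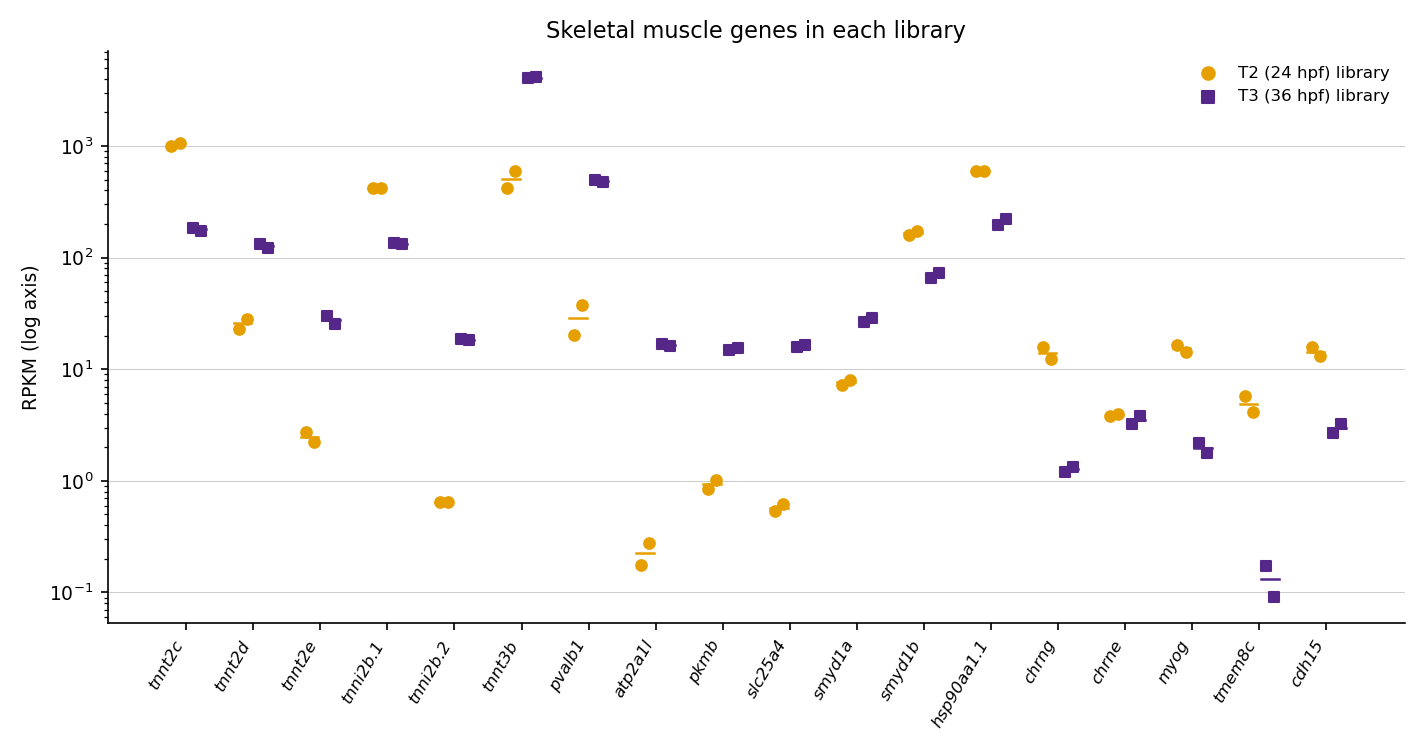
RPKM of 18 skeletal muscle genes (log axis) in each T2 library (circles) and each T3 library (squares), with a bar at the mean of the 2. *tnnt2c*, *tnni2b.1*, *smyd1b*, *hsp90aa1.1*, *chrng*, *myog*, *tmem8c* and *cdh15* are lower at T3, *chrne* was not called, and the other 9 are higher.

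Genes around the sarcomere changed in the same 12 h. Of 7 genes of myosin folding, 3 fell and 1 rose. *hsp90aa1.1*, the muscle chaperone that folds myosin, fell from 603 and 593 to 197 and 221 RPKM (-1.52 ± 0.07). Its partners *unc45b* and *smyd1b* fell from 65.5 and 63.7 to 26.6 and 32.9 RPKM and from 159 and 173 to 65 and 72.4 RPKM, while *smyd1a*, a paralog of the latter, rose from 7.19 and 8.08 to 26.6 and 28.8 RPKM. The call of *unc45b* was lost without T3 library 1, at a log2 fold change of -0.96, and after median centring over the genes of 6 libraries. *nexn*, which codes for the Z-disc protein nexilin, was among the 10 largest losses of RPKM (308 and 322 to 125 and 129 RPKM). At the neuromuscular junction, *chrng*, the gene of the gamma subunit of the embryonic acetylcholine receptor, stood at 15.8 and 12.4 RPKM at T2 and 1.21 and 1.34 RPKM at T3 (-3.03 ± 0.13). *chrne*, the gene of the epsilon subunit that replaces it in mature junctions of mammals, stood at 3.83 and 3.93 RPKM at T2 and 3.21 and 3.81 RPKM at T3 and was not called. The muscle calcium channel gene *cacna1sa* rose from 2.48 and 3.26 to 13.8 and 15.7 RPKM and *scn4ba*, a sodium channel beta subunit gene, from 0.158 and 0.350 to 3.08 and 3.79 RPKM, whereas the calcium channel gamma subunit gene *cacng1a* fell from 4.31 and 3.97 to 1.63 and 1.88 RPKM. The last call did not hold without T2 library 1 or without T3 library 1, at log2 fold changes of -0.99 and -0.96.

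Of 54 genes of glycolysis and creatine phosphate metabolism, 20 rose and 1 fell, with a median of 0.75. *pkmb*, which codes for pyruvate kinase, stood at 0.853 and 1.03 RPKM at T2 and 14.7 and 15.3 RPKM at T3 (3.43 ± 0.09). The phosphofructokinase genes *pfkma* and *pfkmb* rose from 0.558 and 1.21 to 11.3 and 12.6 RPKM and from 0.558 and 0.695 to 5.18 and 6.27 RPKM, the glucose phosphate isomerase gene *gpib* from 3.34 and 4.59 to 18 and 19.7 RPKM and the mitochondrial creatine kinase gene *ckmt2b* from 0.273 and 0.299 to 2.65 and 3.15 RPKM. The single fall was of *slc2a1a*, a glucose transporter gene, from 7.57 and 7.01 to 2.03 and 2.19 RPKM. *slc25a4*, the ADP/ATP carrier gene of the mitochondrial membrane, had the largest rise among 365 solute carrier genes (0.534 and 0.615 RPKM at T2 and 15.9 and 16.5 RPKM at T3, 3.96 ± 0.09). In contrast, only 2 of 100 nuclear genes of oxidative phosphorylation rose and 1 fell, near the shares over all genes, with a median of 0.

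Of 21 genes of muscle commitment and fusion, 7 fell and none rose, with a median of -0.43. *tmem8c* (myomaker), which fuses myoblasts, dropped to 0.172 and 0.0912 RPKM at T3. *myog*, the differentiation factor myogenin, stood at 16.4 and 14.4 RPKM at T2 and 2.17 and 1.78 RPKM at T3 (-2.68 ± 0.11), and *cdh15*, the M-cadherin gene, at 15.7 and 13.1 RPKM at T2 and 2.66 and 3.26 RPKM at T3 (-2.11 ± 0.12). The adhesion gene *jam2a*, which acts in fusion in zebrafish, fell from 8.83 and 7.53 to 2.12 and 2.12 RPKM, *mef2d* from 39.1 and 36 to 14.9 and 16.5 RPKM, *mef2ca* from 36.8 and 39 to 17.3 and 18.3 RPKM and *prdm1a*, a slow fibre regulator, from 14.3 and 12.6 to 6.12 and 6.18 RPKM. Without T2 library 1 the value of *prdm1a* was -0.98, short of the threshold. The call of *mef2ca* was lost with 6 libraries in the fit, after median centring over the genes of 6 libraries and after quantile normalization. Of the early determination genes, *myod1* stood at 6.35 and 7.26 RPKM at T2 and 4.45 and 3.88 RPKM at T3 and *myf5* at 2.49 and 1.88 RPKM at T2 and 2.02 and 2.32 RPKM at T3, both without a call. Among the other muscle genes with a qPCR assay, *smtnl1*, a smoothelin-like gene, fell from 71.1 and 61.5 to 18.3 and 17 RPKM (-1.88 ± 0.09) and *tnni1al* rose from 13.8 and 15.4 to 35.1 and 41.1 RPKM, while *myf6*, *pax3a*, *pax7a*, *srfa*, *igf2a* and *nkx2.5* were not called and had log2 fold changes between -0.40 and 0.19.

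Of 28 genes of the segmentation clock and tail bud, 9 fell and none rose (median -0.59), and 9 had a positive value. *cdx4*, a posterior homeobox gene, stood at 7.83 and 6.36 RPKM at T2 and 0.741 and 0.775 RPKM at T3 (-2.59 ± 0.12). The presomitic T-box genes *tbx6* and *tbx16* fell from 6.93 and 5.35 to 1.16 and 1.06 RPKM and from 1.16 and 1.03 to 0.135 and 0.167 RPKM, *msgn1* from 2.94 and 1.51 to 0.212 and 0.179 RPKM and the protocadherin gene *pcdh8* from 2.8 and 2.31 to 0.144 and 0.224 RPKM. The oscillating repressor genes *her7* and *her1* fell from 2.04 and 1.21 to 0.240 and 0.0978 RPKM and from 1.39 and 1.31 to 0.252 and 0.306 RPKM, and *eve1* and *ripply1* from 1.27 and 1.42 to 0.297 and 0.424 RPKM and from 1.75 and 1.77 to 0.477 and 0.701 RPKM. In each of these the T3 libraries lay below both T2 libraries, as in all 533 genes that fell. The stages did not overlap in 72.95% of all genes tested. Many T3 values of this list are below 1 RPKM, and with a pseudocount of 1 it held 5 calls in place of 9. Among 13 heterochronic and pluripotency genes, *lin28a*, which blocks the maturation of let-7 microRNAs, fell from 17.1 and 16.3 to 6.59 and 6.48 RPKM, *sall4* from 29.8 and 26.3 to 9.67 and 9.58 RPKM and *pou5f3* from 1.11 and 1.01 to 0.141 and 0.194 RPKM, and none rose. *prtga*, a protogenin gene of the early neural tube and mesoderm, was among the 15 largest falls (73.2 and 64.1 RPKM at T2 and 8.95 and 9.81 RPKM at T3, -2.81 ± 0.09). At T1 it stood at 72.2 and 62 RPKM, near its T2 values.

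Of 96 ribosome biogenesis genes none had a positive log2 fold change, 19 fell, and the median was -0.84 against -0.08 for all genes. The nucleolar genes *npm1a* (nucleophosmin) and *fbl* (fibrillarin) fell from 395 and 321 to 147 and 148 RPKM and from 358 and 345 to 161 and 152 RPKM and were among the 10 largest losses of RPKM. *bop1*, *pwp2h* and *mrto4* fell from 78.6 and 69 to 28.4 and 27 RPKM, from 30.1 and 30.5 to 12.7 and 12.5 RPKM and from 110.2 and 99.3 to 44.5 and 45.1 RPKM. With the median close to the threshold, the count moved with the setting. It was 8 after quantile normalization, 7 after median centring over the genes of 6 libraries, 11 without T2 library 1 and 29 without T2 library 2. None of 79 cytosolic ribosomal protein genes was called, although 78 of them had a negative value, with a median of -0.37. Of 59 DNA replication genes 1 fell, *gmnn* (geminin, 34.1 and 33.9 to 15.6 and 16.5 RPKM), with a median of -0.46, and its call was lost after quantile normalization and after median centring over the genes of 6 libraries. None of 71 mitosis genes was called (median -0.29).

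In the eye, the lens led. Of 34 genes of lens crystallins and fibre proteins, 23 rose and none fell, with a median of 2.22. Their summed RPKM went from 48.5 and 70.7 at T2 to 789 and 781 at T3. Besides these, all 21 *crygm2d* genes of the fish gamma crystallins, which lie in 1 cluster on chromosome 9 (22091161 to 22339472), rose. Their mean values ran from 0 to 0.559 RPKM at T2 and from 0.617 to 50.3 RPKM at T3, and 4 of them had no read in either T2 library. *crygm2d18* stood at 0 RPKM in both T2 libraries and at 11.6 and 10.4 RPKM at T3, at least 114-fold above the limit of 3 reads per library. Without this cluster 4.45% of the 831 genes tested on chromosome 9 rose, near the share of all genes. The lens channel gene *mipb* rose from 0.373 and 0.690 to 11.1 and 12 RPKM and the connexin gene *gja8b* from 2.2 and 3.57 to 12.9 and 13.9 RPKM. The lens heat shock factor gene *hsf4* stood at 0.0909 and 0.0185 RPKM at T2 and 0.776 and 0.575 RPKM at T3, a call that did not hold without T2 library 2 or T3 library 1, at log2 fold changes of 0.99 and 0.96.

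Other eye lists held few calls. *atoh7*, the factor that starts retinal ganglion cells, stood at 0.179 and 0.162 RPKM at T2 and 7.55 and 7.29 RPKM at T3 (3.56 ± 0.10, limma adjusted *p* = 4.1e-05). Of 31 genes of retinal progenitors and neurons, *six6b* (1.68 and 1.89 to 5.08 and 4.8 RPKM) and *vsx1* (1.68 and 1.89 to 4.96 and 4.3 RPKM) rose as well, and *prdm1a* fell. Of 39 photoreceptor and pineal genes 3 rose, the homeobox genes *otx5* (0.904 and 0.893 to 4 and 3.61 RPKM) and *crx* (0.302 and 0.280 to 1.51 and 1.59 RPKM) and the arrestin gene *arr3a*, which reached only 0.531 and 0.701 RPKM and had a value of 0.94, short of the threshold, without T3 library 2. None of 23 opsin genes was called. In the pigment lists, 2 of 22 retinal pigment and melanin genes (9.09%) and 1 of 23 pteridine, purine and iridophore genes (4.35%) rose, against 3.92% of all genes. The melanin genes *tyrp1b* and *dct* rose from 12.9 and 18.3 to 48.8 and 44.9 RPKM and from 7.68 and 10.27 to 23.4 and 24.9 RPKM, and *xdh*, a gene of purine breakdown, from 0.271 and 0.424 to 1.84 and 1.84 RPKM.

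Of 37 progenitor and proneural genes, 10 rose and none fell (median 0.51). Among them, *hes2.2* rose from 0.262 and 0.114 to 2.08 and 2.23 RPKM, *insm1a* from 6.62 and 6.72 to 23 and 22.9 RPKM, *ebf3a* from 4.54 and 4.76 to 15.21 and 16 RPKM, *insm1b* from 3.47 and 3.77 to 12.1 and 12.3 RPKM and *neurod4* from 15.4 and 14.9 to 50.3 and 45 RPKM. Of 50 genes of the neuronal cytoskeleton and adhesion, 17 rose and none fell (median 0.77). The neurofilament light chain gene *neflb* stood at 1.07 and 1.54 RPKM at T2 and 15.9 and 13.1 RPKM at T3 (3.07 ± 0.15), and the alpha tubulin gene *tuba2* rose from 5.47 and 5.84 to 17.5 and 17.6 RPKM. Of 42 genes of synaptic vesicles and release, 15 rose and none fell (median 0.78). *sypb* (synaptophysin) rose from 1.14 and 1.16 to 4.02 and 3.83 RPKM and *vamp2* (synaptobrevin) from 3.43 and 4.67 to 10.9 and 10.6 RPKM.

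Of 31 genes of transmitter synthesis and transport, 6 rose, among them the GABA transporter gene *slc6a1b* (0.532 and 0.612 to 3.27 and 3.19 RPKM), the glutamate transporter gene *slc17a6a* (2.73 and 2.94 to 8.26 and 8.02 RPKM) and *gad2*, which makes GABA (0.878 and 0.637 to 2.42 and 2.65 RPKM). Of 46 receptor genes 9 rose, and the muscle receptor gene *chrng* was the only one that fell. The obligate NMDA receptor subunit genes *grin1a* and *grin1b* rose from 1.11 and 1.32 to 4.87 and 5.09 RPKM and from 0.0749 and 0.0819 to 1.3 and 1.3 RPKM, and the glycine receptor gene *glra1* from 0.140 and 0.179 to 1.19 and 1.48 RPKM. Many of these genes are below 1 RPKM at T2, and with a pseudocount of 1 the rises were 3 in the transmitter list and 3 in the receptor list. Of 54 neuropeptide and hormone genes 8 rose and 1 fell. *pyya* (peptide YY), made by the first endocrine cells of pancreas and gut, stood at 0.145 and 0.196 RPKM at T2 and 3.52 and 2.87 RPKM at T3 (2.46 ± 0.13). The granule genes *chgb* and *scg2b* rose from 0.318 and 0.579 to 2.46 and 2.82 RPKM and from 5.06 and 5.74 to 17.5 and 16.8 RPKM, *grp* from 1.3 and 1.93 to 6.76 and 5.61 RPKM and *adcyap1b* (PACAP) from 1.14 and 1.34 to 4.35 and 3.62 RPKM, while *trh* fell from 1.52 and 1.08 to 0.298 and 0.196 RPKM. Axon guidance genes, with 3 of 63 rising, stayed near the share of all genes.

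Glial and patterning genes changed in part. Of 20 radial glia and astroglia genes, 4 rose and none fell. The glutamate transporter genes *slc1a3b* and *slc1a2b* stood at 0.394 and 0.568 RPKM at T2 and 5.99 and 6.25 RPKM at T3 (2.76 ± 0.12) and at 4.11 and 4.82 RPKM at T2 and 19.4 and 19.97 RPKM at T3 (2.03 ± 0.09). The brain fatty acid binding protein gene *fabp7a* rose from 24.4 and 30.7 to 103 and 104 RPKM and *ndrg2* from 14.5 and 18 to 49.7 and 41.6 RPKM. Of 21 genes of myelinating glia, 1 rose and 1 fell (4.76% each), against 3.92% and 2.12% of all genes. *pou3f1* rose (12.4 and 12.8 to 39.8 and 38.4 RPKM) and *egr2b* fell (1.93 and 1.12 to 0.0554 and 0.211 RPKM). The latter also marks hindbrain rhombomeres, and among 48 genes of regional brain patterning it fell together with *hoxb1a*, *zic2b* and *irx7*, the last at -0.99 and without a call when T2 library 1 was left out. In the same list 8 genes rose, among them the hypothalamic gene *otpa* (1.78 and 2.15 to 8.87 and 8.17 RPKM) and *barhl1b* (0.778 and 0.705 to 3.11 and 2.64 RPKM), and with a pseudocount of 1 the rises were 4. None of 35 Hox genes of groups 5 to 13 was called, but with 6.04% of all genes called, a list this short holds few. Of 14 genes of groups 1 to 4, *hoxb1a* alone was called. Most Hox values were negative, 13 of 14 in groups 1 to 4, 8 of 12 in groups 5 to 8 and 22 of 23 in groups 9 to 13. Their medians were -0.33, -0.32 and -0.40, against -0.08 for all genes. All 49 genes of the clustered protocadherin list had a positive value, and 17 rose with a median over the 49 of 0.86. The list was drawn by gene name and holds *pcdh1a* and *pcdh1b*, which share no exon bases with its other members. Of the 49 genes, 46 share exons with other members, with a median of 29.4% of the exon length, and *pcdh2ab6* and *pcdh2ab7* carry identical values. The 17 are therefore not separate rises. *sox12*, a SoxC factor gene outside these lists, stood at 1.05 and 1.21 RPKM at T2 and 25.6 and 18.9 RPKM at T3 (3.79 ± 0.15). It was named after its values were seen.

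Of 47 epidermal genes, 5 rose and 2 fell, with a median of -0.03 and 22 positive values. The keratin gene *krtt1c19e*, a marker of basal cells, rose from 8.89 and 11.7 to 133 and 133 RPKM (3.64 ± 0.12), *krt91* from 62.3 and 85.5 to 314 and 298 RPKM and *krt15* from 1.25 and 1.46 to 5.75 and 4.71 RPKM. The keratin genes *krt92* and *krt5* fell from 158 and 139 to 49.3 and 45.4 RPKM and from 571 and 541 to 281 and 273 RPKM, the second with a log2 fold change at the threshold. The call of *krt5* was lost after both kinds of median centring, and it stood at -0.96 without T2 library 1 and at -0.98 without T3 library 2. Of 32 genes of the fin fold and basement membrane, 6 rose and 1 fell. The 6 include all 4 actinodin genes, which build the actinotrichia of the fish fin fold. *and1* stood at 3.23 and 4.34 RPKM at T2 and 44.2 and 47.8 RPKM at T3 (3.45 ± 0.13) and *and2* at 0.418 and 0.620 RPKM at T2 and 17.4 and 19.5 RPKM at T3 (4.22 ± 0.12), and *and3* and *and4* rose from 0 and 0.0962 to 4.2 and 4.56 RPKM and from 1.91 and 4.3 to 13.3 and 14.4 RPKM. The hemidesmosome collagen genes *col17a1a* and *col17a1b* rose from 0.674 and 0.857 to 10.7 and 9.48 RPKM (3.07 ± 0.11) and from 0.613 and 0.883 to 5.02 and 4.94 RPKM. The fall was of *fbln1* (fibulin), from 11.9 and 10.9 to 5.03 and 5.25 RPKM (-1.08 ± 0.08), and its call was lost after median centring over the genes of 6 libraries. Of 33 genes of the pectoral fin bud none rose, and 3 that are shared with other lists fell (*sall4*, *zic2b* and *prdm1a*).

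Matrix genes were divided. Of 61 collagens and related matrix genes, 14 rose and 4 fell. The tenascin gene *tnw* rose from 27.4 and 30.04 to 119.9 and 124 RPKM (2.07 ± 0.07), *col6a2* from 6.93 and 7.56 to 23.5 and 24.7 RPKM, *fmodb* from 0.175 and 0.200 to 1.88 and 1.4 RPKM, *col28a1a* from 1.34 and 1.2 to 4.99 and 4.42 RPKM and the type I collagen gene *col1a1b* from 104 and 119 to 318 and 336 RPKM. The 4 that fell were *col5a3a* (46.2 and 42.1 to 18.3 and 17.3 RPKM), *col15a1a* (18.3 and 15.9 to 6.77 and 7.53 RPKM), *col14a1a* (26.7 and 24.2 to 11.5 and 11.9 RPKM) and *col8a1a* (24 and 21.8 to 10.4 and 11.3 RPKM). With 6 libraries in the fit only 1 fell, *col15a1a*. The last pair lost the call after median centring over the genes of 6 libraries and after quantile normalization, and *col8a1a* had a value of -0.98 without T2 library 1 or without T3 library 1. Of 60 genes of pharyngeal arches and cartilage, 8 rose and 2 fell. The cartilage matrix genes *matn3a* (matrilin) and *epyc* (epiphycan) rose from 0.781 and 0.975 to 5.01 and 5.73 RPKM and from 4.43 and 5.47 to 17.7 and 19.6 RPKM, the homeobox gene *barx1* from 1.4 and 1.37 to 4.63 and 4.35 RPKM and *col9a1a* from 7.18 and 7.39 to 18.8 and 18.4 RPKM. *ednrab*, an endothelin receptor gene of the neural crest, fell from 4.03 and 2.64 to 0.272 and 0.614 RPKM (-2.02 ± 0.24). The other fall of this list was of *mef2ca*, whose values and lost calls are given with the muscle genes. The crest marker *crestin*, of the neural crest specifier list, fell from 3.46 and 2.32 to 0.530 and 0.730 RPKM, and its call was lost with 6 libraries in the fit. Of 18 neural crest specifier genes, 3 fell, and *sox9b* was the 1 that rose, from 27 and 29.1 to 55.4 and 58.6 RPKM (1.01 ± 0.07), at 0.96 and without a call when T2 library 1 was left out and at 0.97 without T3 library 2. The elastic fibre genes *efemp2a* and *efemp2b*, named after their values were seen, fell from 31.3 and 26.5 to 5.68 and 5.52 RPKM and from 9.16 and 6.77 to 1.29 and 1.29 RPKM.

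In the blood lists, red cell genes changed in both directions. Of 40 tested, 10 rose and 4 fell. Those that rose included the alpha globin genes *hbae1.3* and *hbae1*, the beta globin genes *hbbe1.1* and *hbbe1.3*, and *rhag*, the Rhesus-associated channel gene of the red cell membrane. *hbbe1.1* went from 65.8 and 63.1 to 198 and 171 RPKM and *rhag* from 3.78 and 3.75 to 10.4 and 11.6 RPKM. Those that fell were *urod* and *cpox* of heme synthesis (26.1 and 22.6 to 10.35 and 10.4 RPKM and 26.2 and 19.6 to 11.2 and 10.25 RPKM) and the transcription factor genes *klf17* and *znfl2a* (6.7 and 5.43 to 2.57 and 1.82 RPKM and 73.7 and 73.4 to 33 and 27.5 RPKM). Exons of an assembled antisense transcript cover 50.3% of *znfl2a*. The call of *cpox* was lost without T2 library 1, at -0.84, and without T3 library 2, at -0.98. The falls of the red cell list were 6 without T2 library 2 and 7 without T3 library 2. Of 40 myeloid genes, 8 rose and 2 fell, and with a pseudocount of 1 the counts were 4 and 1. The neutrophil genes *npsn*, *lyz* and *lect2l* rose from 0.540 and 1.21 to 4.62 and 4.96 RPKM, from 0.709 and 0.825 to 5.21 and 3.66 RPKM and from 3.14 and 2.5 to 12.8 and 10.5 RPKM, and *srgn* (serglycin) from 0.132 and 0.134 to 1.15 and 1.26 RPKM. The stronger of the 2 falls was of *ctss2.1*, a cathepsin S gene, from 59.8 and 52.9 to 5.52 and 7.31 RPKM (-3.05 ± 0.13). *bcl11aa*, a zinc finger factor known from lymphoid cells and neurons, rose from 2.31 and 2.94 to 15.3 and 14 RPKM (2.28 ± 0.11). Among 47 endothelial genes, *lyve1a*, a gene of venous and lymphatic endothelium, rose from 0.162 and 0.198 to 2.91 and 2.6 RPKM (2.26 ± 0.12), *exoc3l2a* rose and the angiopoietin receptor gene *tek* fell, near the shares of all genes. Both *exoc3l2a* and *tek* lost the call with a pseudocount of 1, and *tek* stood at -0.94 without T2 library 1. The pan-endothelial *cdh5* stood at 7.39 and 7.65 RPKM at T2 and 7.97 and 7.86 RPKM at T3.

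Of 15 genes of cathepsins, the proteases of the lysosome, 5 fell and none rose, with a median of -0.55 and 4 positive values. *ctsc* stood at 29.3 and 27.5 RPKM at T2 and 3.71 and 3.98 RPKM at T3 (-2.73 ± 0.07), *ctsll* at 36.9 and 28.9 RPKM at T2 and 5.31 and 4.4 RPKM at T3 (-2.64 ± 0.14) and *ctsh* at 33.5 and 28.3 RPKM at T2 and 5.45 and 6.14 RPKM at T3 (-2.32 ± 0.10). *ctsba* fell from 49 and 48.1 to 22.2 and 22.6 RPKM. *ctss2.1* fell most among them and stood at 98.8 and 63.3 RPKM at T1. Cathepsins are known to process yolk proteins in fish. Of 49 genes of liver plasma proteins and yolk lipid transport, 3 fell and 3 rose (6.12% each), against 2.12% and 3.92% of all genes. *abcb11a*, a bile salt pump gene, fell from 13.4 and 8.83 to 0.685 and 0.555 RPKM (-3.35 ± 0.19), the fatty acid binding protein gene *fabp2* from 222 and 237 to 56 and 57.8 RPKM and *apoa4a* from 25.9 and 21.9 to 10.03 and 11.4 RPKM, and *apoa4a* lost the call without T2 library 1, at -0.997. *fabp1a*, *cp* (ceruloplasmin) and *apoea* rose from 5.6 and 5.63 to 19 and 20.2 RPKM, from 8.9 and 9.7 to 22.4 and 20.3 RPKM and from 78.4 and 74.5 to 171 and 159 RPKM. The glucose transporter gene *slc2a2* fell from 7.91 and 6.15 to 1.8 and 1.95 RPKM. Of 24 coagulation genes 5 rose, with *fgg* (fibrinogen gamma) going from 22.4 and 25.4 to 51.2 and 53.8 RPKM, and the count was 3 without T2 library 1 or without T3 library 1. Of 43 genes of the pronephros list, 3 rose (6.98%) and 1 fell (2.33%), against 3.92% and 2.12% of all genes. The ion cotransporter gene *slc12a1* fell from 5.46 and 4.32 to 0.942 and 0.840 RPKM (-1.95 ± 0.13). *lhx1a*, a kidney and neuron homeobox gene, rose from 2.22 and 2.53 to 13.2 and 13 RPKM (2.24 ± 0.08) and the water channel gene *aqp3a* from 1.59 and 2.02 to 7.8 and 8.37 RPKM. The third rise was of *cyp27b1*, whose call was lost with a pseudocount of 1. It stood at 0.90 without T2 library 2 and at 0.997 without T3 library 1.

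In the heart list, the atrial peptide gene *nppa* stood at 0.175 and 0.483 RPKM at T2 and 4.2 and 3.92 RPKM at T3 (2.48 ± 0.19), the myosin gene *vmhcl* rose from 4.7 and 5.82 to 15.7 and 14.6 RPKM and the calcium release channel gene *ryr2a* from 0.923 and 1.01 to 2.71 and 2.75 RPKM, and *vcana* (versican) fell from 16 and 14.7 to 5.65 and 5.97 RPKM. The call of *ryr2a* was lost with a pseudocount of 1, and in which tissue of the embryo it rose was not tested. Of the 33 heart genes tested, 3 rose (9.09%) and 1 fell (3.03%), against 3.92% and 2.12% of all genes. The other 29 were not called, among them the chamber genes *myl7* (17.7 and 18.1 RPKM at T2 and 15.6 and 14.5 RPKM at T3) and *vmhc* (28.3 and 28.4 RPKM at T2 and 20.3 and 19.6 RPKM at T3). In the ear list *oc90*, an otolith matrix protein gene, fell from 24.7 and 23.9 to 8.11 and 7.23 RPKM. It was the only call of 34 genes (2.94%), where 2.12% of all genes fell.

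The circadian clock list held calls in both directions. Of 51 genes, 8 fell and 4 rose. *per1b*, a period gene of the negative limb, stood at 8.36 and 5.86 RPKM at T2 and 0.640 and 0.763 RPKM at T3 (-2.65 ± 0.17), with T2 libraries that differed from each other. *nr1d1* (Rev-erb alpha), *tefa* (a PAR-type activator) and *per3* fell from 2.89 and 2.82 to 0.768 and 0.509 RPKM, from 21.1 and 18.8 to 6.91 and 7.54 RPKM and from 21.9 and 19.6 to 8.25 and 7.9 RPKM. The light-responsive genes of fish *lonrf1l*, *cry5*, *cry-dash* and *ddb2* also fell, the last 2 of which code for a DASH-type cryptochrome and a DNA repair factor (5.63 and 4.89 to 2.22 and 2.02 RPKM and 5.35 and 6.49 to 2.26 and 1.9 RPKM). Those that rose were *rorb* (2.58 and 2.78 to 8.52 and 8.11 RPKM), *nfil3-2* (3.03 and 3.58 to 9.15 and 9.16 RPKM), *nfil3-5* (2.84 and 2.84 to 8.1 and 7.53 RPKM) and *nr1d2a* (0.793 and 0.654 to 2.02 and 2.16 RPKM). Per the study's methods the fish were kept in a daily cycle of light and dark, and pairs were brought together in the morning to spawn. The exact hour of collection and the lighting of the embryos are not given. Embryos of 24 and 36 hpf from morning spawnings fall at different hours of the day, so age and hour of collection cannot be told apart.

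A single glucocorticoid-related gene, *fkbp5*, gave 1 of the strongest rises outside the structural lists. Its list held 3 rises (9.68%) and 1 fall (3.23%), against 3.92% and 2.12% of all genes, and 27 genes without a call. The median of the list was 0.06. *fkbp5*, a cochaperone gene that glucocorticoids induce in mammals, stood at 0.442 and 0.508 RPKM at T2 and 14 and 13.7 RPKM at T3 (3.88 ± 0.09, limma adjusted *p* = 3.1e-05), with T1 values of 0.966 and 1.4 RPKM. In the same list of 31 interrenal, thyroid and steroid genes, *hsd11b2*, which inactivates cortisol, rose from 1.25 and 1.08 to 5.36 and 6.16 RPKM and *star*, which delivers cholesterol to mitochondria, from 0.258 and 0.458 to 1.02 and 1.43 RPKM. *cyp11a1*, the side chain cleavage enzyme gene, fell from 2.4 and 1.03 to 0.0473 and 0.0270 RPKM, following T1 values of 12.5 and 16 RPKM. The calls of *star* and *cyp11a1* did not hold under every setting, *star* losing it with a pseudocount of 1, without T2 library 1 and without T3 library 2 (0.84 in both), and *cyp11a1* with voom weights on the recovered reads. Of 54 genes of p53 and stress responses, 4 rose (7.41%) and 1 fell (1.85%), against 3.92% and 2.12% of all genes. The antioxidant genes *cat* (catalase) and *sod2* rose, *sod2* from 2.56 and 2.95 to 10.1 and 11.2 RPKM, *fosb* rose from 1.46 and 1.88 to 4.29 and 4.5 RPKM and *hspb1* fell from 74 and 81 to 29.2 and 34.2 RPKM. *hsp70.1* was called at 45.8 and 72.9 RPKM at T2 and 108 and 282 RPKM at T3, with T3 libraries far apart. Its call was lost without T2 library 1 (1.25), T2 library 2 (1.92) or T3 library 2 (0.90), the change in brackets. It was also lost with 6 libraries in the fit, without the filter, with voom weights on the recovered reads and without trend and robust in limma.

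Several signaling lists held few or no calls, and with 6.04% of all genes called, lists this short hold few. Of 29 hedgehog, 31 FGF ligand, 13 BMP ligand and 25 insulin-like growth factor genes none was called, with medians of -0.19, 0.13, -0.10 and -0.07. The sonic hedgehog gene *shha* stood at 7.98 and 8.15 RPKM at T2 and 8.56 and 8.98 RPKM at T3. Of 39 Notch pathway genes *helt* (2.75 and 2.31 to 7.67 and 6.04 RPKM), *her4.4* (4.79 and 5.72 to 12.4 and 13.5 RPKM) and *her4.3* (1.36 and 2.01 to 4.27 and 4.51 RPKM) rose, the last with 0.96 and no call without T2 library 1. In the retinoic acid list 2 of 29 genes rose (6.9%), against 3.92% of all genes. The binding protein genes *crabp1a* and *crabp1b* rose from 0.283 and 0.287 to 3.96 and 2.94 RPKM and from 18.4 and 24.2 to 44.5 and 41 RPKM, the latter at the threshold, with 0.81 without T2 library 1 and 0.94 without T3 library 1. Of 13 hatching gland genes 2 fell, *bhlha15* (4.12 and 3.73 to 1.38 and 0.910 RPKM) and *klf17*, which the red cell list also holds. None of 41 proteasome genes was called (median -0.35). Among the 39 genes of the mitochondrial chromosome 7 fell, all tRNA genes, and the 15 protein and rRNA genes held no call. The tRNA gene *trnG*, of 70 bases, fell from 315 and 225 to 84 and 90.1 RPKM, and RNA of this length is captured poorly by such libraries.

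Some genes crossed from near absence to expression. In all, 25 genes stood under 0.1 RPKM in both T2 libraries and above 1 RPKM in both T3 libraries, and 16 of them were *crygm2d* genes. The other 9 were *grin1b*, *and3*, the lens genes *crybb1l3* and *lctla* (lactase-like), *hspb2*, *tdh2*, *tfap2d*, dkey-202l22.6 and the gene listed as 136930. *hspb2*, a small heat shock protein gene of muscle, had no read at T2 and 2.79 and 3.25 RPKM at T3, at least 74.3-fold above the limit of 3 reads per library. *tfap2d*, a gene of the AP-2 factors, stood at 0.0742 and 0.0602 RPKM at T2 and 1.77 and 1.63 RPKM at T3. In the other direction 8 genes went from above 1 RPKM in both T2 libraries to under 0.1 RPKM in both T3 libraries. They were *cyp11a1*, *lft2*, a Nodal inhibitor gene of left-right patterning (1.3 and 1.58 RPKM at T2 and 0.0315 and 0.0150 RPKM at T3), *nxnl1* (1.95 and 1.55 RPKM at T2 and 0.0515 and 0.0980 RPKM at T3), LOC100148920, LOC108179992, LOC566574, dkey-125e8.4 and the gene listed as 92184. LOC100148920 and 92184, both on scaffolds, were at 8.7 and 19.5 RPKM and at 6.15 and 14.2 RPKM at T1.

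Unnamed genes stood at both ends of the gene table. The largest rise was of LOC101882472 (chromosome 16, 54714470 to 54740110), at 0.438 and 0.419 RPKM at T2 and 162 and 167 RPKM at T3. The largest falls were of LOC101882092 (chromosome 4, 16444600 to 16451045), at 39.7 and 28.3 RPKM at T2 and 1.52 and 1.9 RPKM at T3 (-3.95 ± 0.17), and of LOC100149084 (chromosome 13, 48615193 to 48725878), at 74 and 61.7 RPKM at T2 and 4.83 and 4.82 RPKM at T3 (-3.68 ± 0.09). Both were low at T1, with 0.643 and 0.457 and with 3.89 and 1.04 RPKM, so that in these libraries 24 hpf was the stage of their highest level. LOC100331050 and LOC101884302 fell from 5.82 and 6.01 to 0.386 and 0.326 RPKM and from 13.1 and 11.9 to 1.13 and 1.36 RPKM. LOC108191751 on chromosome 12 rose from 0.503 and 2.48 to 31.9 and 33 RPKM, with T2 libraries far apart. Among large losses of RPKM, LOC108179070 on chromosome 18 went from 282 and 264 to 43.4 and 44.9 RPKM (-2.62 ± 0.06) and dkey-239j18.2 from 332 and 345 to 111.6 and 99.1 RPKM.

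Of the 7909 lncRNAs tested, 617 were called (7.80%), 313 higher (3.96%) and 304 lower (3.84%). Of the 5887 assembled transcripts tested, 264 rose and 268 fell, and of the 2022 annotated ones 49 and 36. Leaving out 1 library lost a far larger share of these calls than of those of the gene table. A call lost in such a fit of 3 libraries does not show that 1 library carried it. LOC101885256 stands in both tables with the same values and the same log2 fold change of 5.38. In the lncRNA table only, its call was lost without T3 library 1, at 5.25, and without T3 library 2, at 5.51. For such a transcript the tables are not separate evidence. Without T3 library 1 or without T3 library 2 limma called none, with 1632 and 1640 transcripts at an unadjusted *p* under 0.05, and without T2 library 1 it called 19. None of the 617 changed its sign in any setting, but their stages did not overlap, so leaving out a library could not reverse a sign. The values of the assembled transcripts may not share the scale of annotated genes. Among the 8 largest rises were LOC101885256 and its antisense partner TCONS_00006344, which share 331 exon bases on opposite strands. No source states that reads were assigned by strand, so they cannot be told apart. The same holds for LOC100536415 and TCONS_00008665, with 656 shared bases. TCONS_00006345 (chromosome 2, 59097595 to 59100374), which lies within the span of LOC101885256, stood at 0.297 and 0.337 RPKM at T2 and 11.9 and 14 RPKM at T3 (4.04 ± 0.16). TCONS_00037262 (chromosome 7, 68679091 to 68680302) stood at 0 and 0.0730 RPKM at T2 and 7.42 and 4.58 RPKM at T3 (3.57 ± 0.25). TCONS_00072487 lies within the span of LOC101882472, the gene with the largest rise, and rose from 0.348 and 0.249 to 8.96 and 10.4 RPKM. TCONS_00055935 on chromosome 12 rose from 0.185 and 0.841 to 12.7 and 11.6 RPKM, with T2 libraries far apart. The largest fall was of TCONS_00112448 on a scaffold, from 125 and 43 to 1.36 and 1.02 RPKM (-5.46 ± 0.49). The next was of TCONS_00119659, also on a scaffold, from 1063 and 386 to 18 and 15.17 RPKM (-5.23 ± 0.47), with T2 libraries far apart. TCONS_00095401 (chromosome 23, 34894312 to 34937057) fell from 6.86 and 3.03 to 0 and 0.0368 RPKM and TCONS_00031186 on chromosome 6 from 2.81 and 5.62 to 0.372 and 0.202 RPKM. TCONS_00017660, TCONS_00037875 and TCONS_00009725 fell with log2 changes of -2.46, -2.39 and -2.35. TCONS_00061344, at 9.73 and 9.14 RPKM at T2 and 0.532 and 0.725 RPKM at T3, lies on chromosome 13 next to LOC100149084, which had the second largest fall of the gene table. Without T2 library 1, 7 of these lost the call and kept their sign, TCONS_00037262 at 3.47, TCONS_00095401 at -2.77, TCONS_00031186 at -2.97, TCONS_00061344 at -3.10, TCONS_00017660 at -1.77, TCONS_00037875 at -2.51 and TCONS_00009725 at -2.38.

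Of the lncRNAs with a qPCR assay, LOC103909205 (3.35 ± 0.19), ch73-21g5.7 (1.62 ± 0.17) and LOC108192140 (1.13 ± 0.25) rose besides LOC101885256, and LOC100536039 (-1.18 ± 0.22) fell. LOC103909205 stood at 0.232 and 0.330 RPKM at T2 and 8.46 and 6.55 RPKM at T3. Without a call were LOC108179067 (3.42 and 4.1 RPKM at T2 and 5.65 and 6.43 RPKM at T3), LOC108179796 (2.02 and 2.05 RPKM at T2 and 3.7 and 5.4 RPKM at T3), LOC101884451, LOC101884456 and LOC103910859.

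All 7 loci of miR-9, a microRNA of neural progenitors and neurons in vertebrates, rose, as did the 11 lncRNAs whose spans hold 5 of them. This set was chosen after its values were seen. The gene table lists 256 microRNA loci of 60 to 408 bases, of which 203 were tested. Of these 23 rose (11.3%) and 12 fell (5.91%), against 3.92% and 2.12% of all genes. Such short loci hold few reads, and 3 reads on 87 bases correspond to 0.696 RPKM. The reads come from libraries of long RNA and measure precursors or host transcripts, not mature microRNAs. The *mir9* loci had log2 fold changes between 2.39 and 3.64. *mir9-2* (chromosome 10, 43535960 to 43536095) stood at 3.76 and 3.05 RPKM at T2 and 34.7 and 33.5 RPKM at T3 (3.15 ± 0.10). *mir9-3* on chromosome 25 stood at 1.62 and 1.03 RPKM at T2 and 15.7 and 15.7 RPKM at T3 and *mir9-4* on chromosome 22 at 1.88 and 3.81 RPKM at T2 and 31.7 and 42.3 RPKM at T3. *mir9-1* had no read in T2 library 1 and 2.1 and 4.66 RPKM at T3. Of the 11 transcripts, 3 lie on the strand of the microRNA and 8 on the other. Their log2 fold changes were between 2.29 and 5.38. The 3 on the strand of the microRNA are LOC101885256 over *mir9-7*, an annotated lncRNA of chromosome 5 (48110152 to 48178923) over *mir9-5*, and ch73-215f7.1 (chromosome 10, 43499821 to 43540068) over *mir9-2*. The lncRNA over *mir9-5* stood at 0.817 and 0.891 RPKM at T2 and 11.6 and 11.2 RPKM at T3 (3.14 ± 0.14) and ch73-215f7.1 at 4.89 and 6.09 RPKM at T2 and 44 and 37.7 RPKM at T3 (2.79 ± 0.17). TCONS_00035498 and TCONS_00071499 share exon bases with their locus, 88 with *mir9-6* and 87 with *mir9-1*, each on the opposite strand, and the other 9 share none. Transcripts over the same locus share exons with each other, so the 11 are not separate rises. The plot of miR-9 loci shows both side by side. *mir125b-3* on chromosome 10 also rose, from 1.78 and 2.52 to 21 and 21.1 RPKM. Among the loci that fell, *mir133b* on chromosome 20, a muscle microRNA, went from 21.9 and 19 to 7.24 and 5.28 RPKM (-1.64 ± 0.15), and *mir206-2* and *mir133c* of chromosome 17 from 2.25 and 1.9 to 0 and 0.531 RPKM and from 4.94 and 3.42 to 2 and 1.06 RPKM.

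**Figure D5:**
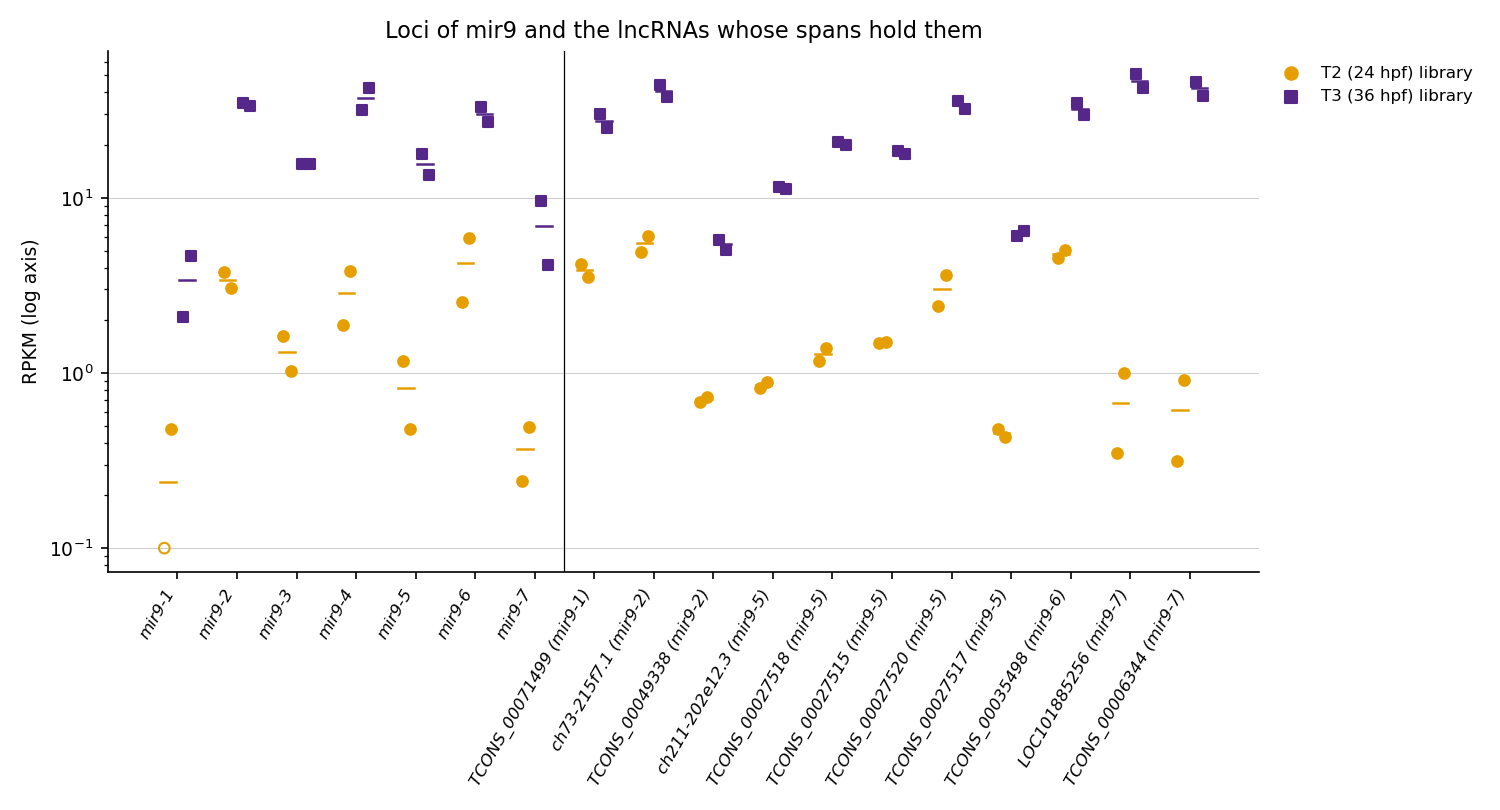
RPKM (log axis) of the 7 *mir9* loci in the gene table (left of the line) and of the 11 lncRNA table transcripts whose spans hold 1 of them (right, with the locus in brackets), for each T2 library (circles) and T3 library (squares), with a bar at the mean; the open circle marks a value of 0 drawn at 0.1. In every pair both T3 libraries lie above both T2 libraries, as in every gene and lncRNA that rose.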

How the data were processed

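RNA was measured in whole AB zebrafish embryos by rRNA-depleted, strand-marking total RNA sequencing, with 2 libraries a stage. Per the study's methods the authors aligned reads with STAR, counted them with featureCounts and used edgeR for their own tests. The build, GRCz11, is from the submitters' processing notes. Both deposited tables hold RPKM values made by the authors from these counts, with exon coordinates. Neither the use of strand in counting nor the assembly of the TCONS transcripts is described in the sources used here. No value column lacked a sample (0). The RPKM of the gene table gave whole reads (within 0.01) for 100% of values. The read total that scaled each library could therefore be recovered, between 48249525 and 51846237 reads. Whether this total holds only reads in genes was not tested.

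Features at 0.1 RPKM or more in at least 2 of the 4 libraries were fitted on log2(RPKM + 0.5) with limma 3.58.1 (trend and robust, statmod 1.5.0) in R 4.3.3, T3 against T2, each table apart, with Benjamini-Hochberg adjustment over the whole table. Errors of log2 fold changes are limma standard errors. Tables and figures were made with matplotlib 3.10.9, pandas 2.3.3 and numpy 2.4.6 under Python 3.11.15, and the test was tested on simulated data. Alternatives were the pseudocount, the filter, the scaling, the libraries in the fit, the threshold, the replicate block, voom weights on recovered reads and leaving out each library. Median centring over the genes of 6 libraries was chosen after seeing the data.

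Named were the 15 largest rises and falls above 1 RPKM, the 10 largest gains and losses of RPKM, up to 5 called members of each list, members called against their list, up to 3 defining members without a call, the 8 largest rises and falls of the lncRNA table, and genes the study measured by qPCR. Outside this rule and chosen after their values were seen are *and4*, *apoea*, *cry-dash*, *ddb2*, *per3*, *eve1*, *her1*, *ripply1*, *tbx16*, *srgn*, *mipb*, *lft2*, *nxnl1*, *tfap2d*, *hspb2*, 92184, *sox12*, *efemp2a*, *efemp2b* and the microRNA loci with their hosts. The members and lists were chosen with earlier results of these data known. Some genes are not reported here.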

Additional observations from a re-analysis of the deposited data

How the results depend on the processing

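None of the 1520 genes and 617 lncRNAs called changed its sign under any alternative. The libraries of these features did not overlap between stages. Leaving out 1 library or changing the pseudocount therefore could not reverse a sign, and the kept signs are no test of the calls. The gene count was 3082 with a pseudocount of 0.1 (1809 higher, 1273 lower), 997 with a pseudocount of 1 (336 lower), 3647 with voom weights on recovered reads (2118 higher, 1529 lower) and 223 at an absolute log2 fold change above 2 (177 higher, 46 lower). Leaving out 1 library gave 1381 to 1828 genes, 904 to 1154 higher and 477 to 674 lower. The other alternatives gave 1387 to 1643. The lncRNA count was 402 with 6 libraries in the fit (144 lower), 382 with a pseudocount of 1 (147 lower) and 85 at an absolute log2 fold change above 2 (61 higher, 24 lower). Leaving out 1 library gave 0 to 337 lncRNAs, 0 to 203 higher and 0 to 134 lower. limma gave the count of 0 without T3 library 1 and without T3 library 2, where 1632 and 1640 lncRNAs had an unadjusted *p* under 0.05, and no other tool was run on that table. The lone library was assumed to vary like the other stage. Median centring over the genes of 6 libraries raised the higher share of genes from 64.9% to 78% and left 201 lncRNAs lower. With the replicate number as a block, 1526 genes were called, 1518 of them shared, and 676 lncRNAs. The deviations of same-numbered libraries correlated at -0.00154 across 16987 genes, so these values showed no common lean by number. Whether same-numbered libraries shared a clutch or a preparation was not tested.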
